A study of Bos taurus with 68 samples.

Results

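The ubiquitin-proteasome system of the cow liver was followed through 83 cDNA clones of 66 genes, out of 5598 clones that name 1 gene and stand for 4452 genes on the array. Members were taken by gene symbol: the proteasome subunits and activators (symbols starting with PSMA, PSMB, PSMC, PSMD or PSME), the activating enzymes (UBA and a digit), the conjugating enzymes (UBE2) and the ubiquitin-specific proteases (USP and a digit). The proteasome class held 28 clones of 24 genes, and the enzyme classes held 54 clones of 41 genes. The last clone, PSME3IP1, codes a protein that binds an activator and is no subunit, so it is given apart. Another 2 clones whose symbols start this way name several genes and were left out.

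Liver RNA came from 5 cows, called 6934, 6983, 7079, 7186 and 7188, on days -65, -30, -14, 1, 14, 28 and 49 relative to calving, without any treatment in the labels. The larger of 2 tables, used for all tests, holds 30 cow-days. All 5 cows are there on days -65, -30, 1 and 28, all but cow 6983 (4 cows) on day 49, and only 3 on each of days -14 and 14. Each liver RNA shared an array with a reference standard RNA, whose source the labels do not describe, and was measured again with the dyes exchanged. The labels do not give the breed, parity, diet or health of the cows.

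Every value below is a log2 ratio, likely of liver over reference, set to 0 at the median listed clone of each array and averaged over the exchanged pair into 1 value per cow and day. The labels do not say which dye is the numerator. Were it Cy3 rather than Cy5, all signs below would turn. Ratios of different clones were not read as amounts of RNA, since they depend on the reference as much as on the liver.

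Ubiquitin is a small protein that marks other proteins for removal. An activating enzyme (E1) charges it, a conjugating enzyme (E2) carries it, and a ligase attaches it to the target, while deubiquitinating enzymes such as the USP family take it off again. Chains of ubiquitin send proteins to the proteasome, in which the 19S particle binds and unfolds the target and the 20S core cuts it. In liver this route removes damaged and short-lived proteins, and interferon exchanges the cutting subunits for others that favour antigen presentation. Roles named below are those known from human, mouse and yeast cells, not from these cows.

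In the level test described below, 5 of 6 hepatocyte marker clones passed an adjusted p under 0.05 above the reference (median level 3.12). Of the markers of Kupffer cells and macrophages 12 of 14 did (median level 1.63), against 23.1% of all clones. By sign alone, 6 of 6 and 14 of 14 lay above 0. Markers of lymphocytes and neutrophils passed above the reference in 2 of 4 clones and lay above 0 in 3 of 4. No erythroid marker was among the clones tested. The exchanged arrays of a cow-day correlated below 0 across clones, as opposite dyes would give, in 25 of 30 cow-days. The other 5 were day 49 of cows 6934 and 7188, day 14 of cows 6983 and 7186, and day 1 of cow 7079. These arrays compare tissue, so fewer cells of a type and less RNA per cell cannot be told apart.

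Testing required values from 3 or more cows for all 7 days, and 80 of the 83 members met this. UBE2Q2, a conjugating enzyme, had a value in 24 cow-days, from -1.28 to 2.71 with a median of 0.53. USP42 had one in 28 cow-days, from -1.04 to 2.52 with a median of 0.25. The second USP7 clone had one in 20 cow-days, from -1.92 to 2.07 with a median of 0.17. None of these 3 enters the counts that follow.

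Across the 7 days, no member passed the day test. This was a moderated F test in limma with day and cow as terms and a Benjamini-Hochberg adjusted p under 0.05 over 5280 clones, which 0.0189% of all clones passed. At an unadjusted p under 0.05, 1 of 80 members passed, against 5.06% of all clones. That member was the first clone of USP7, a protease that acts on the p53 regulator MDM2 (F = 2.82, adjusted p = 0.942). The next was the second clone of UBE2F, a conjugating enzyme for the ubiquitin-like protein NEDD8 (F = 2.43, adjusted p = 0.958). Among proteasome members the smallest p belonged to PSME4, a large activator that caps the 20S core (F = 1.29, adjusted p = 0.996), and to PSMB8, an interferon-inducible cutting subunit (F = 1.19, adjusted p = 0.996).

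Averaged over the exchanged dyes, the proteasome class as a whole stayed near the median clone on every day. By its median level, the class lay below the median clone with liver in Cy3 alone and above it with liver in Cy5 alone. The median over its 28 clones, averaged over cows, was -0.05 ± 0.06 on day -65, -0.00 ± 0.13 on day -30 and -0.19 ± 0.21 on day -14 (SD, n = 5, 5 and 3 cows). It was -0.05 ± 0.24 on day 1, 0.01 ± 0.20 on day 14, 0.02 ± 0.04 on day 28 and -0.12 ± 0.09 on day 49 (SD, n = 5, 3, 5 and 4 cows). The 51 enzyme clones averaged 0.00 ± 0.07, -0.02 ± 0.07 and -0.03 ± 0.14 on days -65, -30 and -14. They averaged -0.03 ± 0.07, -0.01 ± 0.11, -0.01 ± 0.12 and -0.06 ± 0.05 on days 1, 14, 28 and 49, with the same numbers of cows. In both classes the SD over cows was at least as large as the size of the mean on every day but day 49.

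The cows did not follow a common course in the proteasome class. On day 1 its median was 0.33 in cow 7186 and -0.33 in cow 6983, with -0.06, -0.09 and -0.09 in cows 6934, 7079 and 7188. The clones of cow 7188 reached far below that median, with a lower quartile of -1.22 against -0.54 over all clones. In cows 6934, 6983, 7079 and 7186 the lower quartile of the class on day 1 was -0.22, -0.62, -0.19 and -0.28. By day 28 the medians of the 5 cows lay between -0.05 and 0.08. On day -14 the median was -0.38 in cow 6983, -0.23 in cow 7186 and 0.04 in cow 7188.

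**Figure D1:**
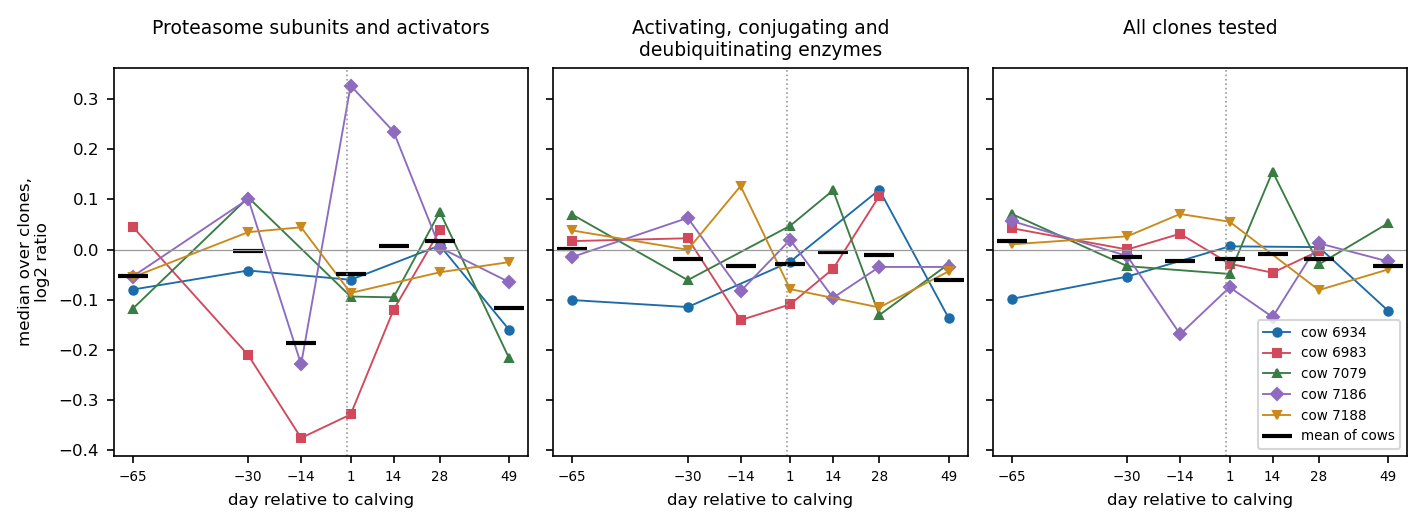
Median log2 ratio over the clones of the proteasome class, of the enzyme classes and of all clones tested, against the day relative to calving. Each coloured line is 1 cow, black bars are the mean over cows, and the dotted line is calving; the proteasome class spreads most around calving, from -0.33 to 0.33 on day 1, and least on day 28.

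Within a liver sample, the proteasome class was above the enzyme classes in 12 of 30 cow-days. The difference of the 2 medians ran from -0.23 to 0.33 with a median of -0.03. On day -14 it was below 0 in 3 of 3 cows (-0.15 ± 0.08, SD), while on day -30 it was above 0 in 4 of 5 cows (0.02 ± 0.15, SD). On day 1 it was above 0 in 1 of 5 cows and on day 28 in 3 of 5. No day separated the classes in all cows except day -14, which held the fewest cows together with day 14. These differences carry no test.

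Before calving, from day -65 to day -30, no member passed the threshold in the contrast of the 2 days, and 0.0% of all clones did. At an unadjusted p under 0.05, 9 of 80 members passed, against 9.94% of all clones, and all 9 were enzymes. The first clone of USP7 had -0.18, 0.17, 0.40, 0.86 and 0.29 on day -30, against 0.95, 1.22, 1.04, 1.50 and 0.79 on day -65, in cows 6934, 6983, 7079, 7186 and 7188. It was lower on day -30 in 5 of 5 cows, though the days overlapped (-0.79 ± 0.27, SE, adjusted p = 0.486). USP46 had 0.06, 0.08, 0.08, 0.20 and 0.21 on day -30, against -0.18, -0.78, 0.23, -0.70 and -0.63 on day -65 in the same order of cows (0.54 ± 0.21, SE, adjusted p = 0.486). In the proteasome class the smallest p belonged to PSMB8 (0.79 ± 0.40, SE, adjusted p = 0.486) and PSMD7, a 19S subunit (0.64 ± 0.36, SE, adjusted p = 0.503). PSMB8 was at 2.45 in cow 7079 on day -30 and at -1.24 in cow 7188 on day -65, each far from the other cows of its day.

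Across calving, day 1 against day -30, no member passed the threshold, and 0.0189% of all clones did. At an unadjusted p under 0.05, 2 of 80 members passed, against 7.59% of all clones. The second clone of UBE2F had 0.11, 0.13, 0.11 and -0.23 on day 1 in cows 6934, 6983, 7079 and 7188, against 0.50, 0.63, 1.38 and 0.72 on day -30 in those cows, with no value for cow 7186 on day 1 and 0.86 on day -30. The 2 days did not overlap, and the value was lower on day 1 in 4 of 4 cows (-0.79 ± 0.26, SE, adjusted p = 0.481). The second clone of USP47, a protease that acts on DNA polymerase beta, had 0.25, 0.13, 0.33, 0.35 and 0.61 on day 1, against -0.28, -0.90, -0.00, 0.06 and -0.40 on day -30. It was higher on day 1 in 5 of 5 cows without overlap (0.64 ± 0.26, SE, adjusted p = 0.576). In the proteasome class the smallest p belonged to PSMD9, a chaperone for assembly of the 19S particle (-0.53 ± 0.26, SE), and to PSME4 (0.67 ± 0.34, SE), both with adjusted p = 0.657.

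Over the first weeks of lactation, day 28 against day 1, no member passed the threshold, and 0.0% of all clones did. At an unadjusted p under 0.05, 3 of 80 members passed, against 7.35% of all clones. UBE2F clone 2 had 0.92, 1.52, 0.64, 0.35 and 0.11 on day 28, which overlapped its 4 values on day 1 (0.68 ± 0.26, SE, adjusted p = 0.581). USP47 clone 2 had -0.59, -0.16, -0.10, -0.25 and -0.07 on day 28, below all 5 values on day 1 (-0.57 ± 0.26, SE, adjusted p = 0.644). Both clones thus had estimates of opposite sign in this contrast and the one across calving, which share the day 1 samples. PSMB7, which carries the trypsin-like activity of the 20S core, had 0.11, 0.72, 0.88, 0.32 and 0.06 on day 28, against -0.11, -0.25, -0.03, 1.00 and -1.39 on day 1 (0.57 ± 0.28, SE, adjusted p = 0.680). Its day 1 values spanned more than 2 log2 units, with cow 7186 highest and cow 7188 lowest. PSMD9 gave 0.45 ± 0.26 (SE, adjusted p = 0.720).

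Later in lactation, day 49 against day 28, no member passed the threshold, and 0.0% of all clones did. At an unadjusted p under 0.05, 3 of 80 members passed, against 7.06% of all clones. UBE2L6, the interferon-induced conjugating enzyme of the ubiquitin-like protein ISG15, had 0.12, 0.23, 0.54 and -0.04 on day 49 in cows 6934, 7079, 7186 and 7188. On day 28 it had 0.80, 1.41, 0.80 and 1.37 in those cows and 1.01 in cow 6983. The 2 days did not overlap, and the value was lower on day 49 in 4 of 4 cows (-0.84 ± 0.30, SE, adjusted p = 0.585). UBE2S, which lengthens ubiquitin chains for the anaphase-promoting complex, was the most variable member, with a residual SD of 0.96 against a median of 0.37 over the 80 members. It had 1.58, 0.64, 0.98 and 0.40 on day 49, against -0.62, -0.48, -1.25 and 0.76 on day 28 in the same 4 cows and -1.40 in cow 6983 (1.42 ± 0.59, SE, adjusted p = 0.654). In the proteasome class PSME1, a subunit of the interferon-inducible activator, gave -0.42 ± 0.28 (SE, adjusted p = 0.857), and the second clone of the ATPase PSMC2 gave -0.37 ± 0.25 (SE, adjusted p = 0.867).

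**Figure D2:**
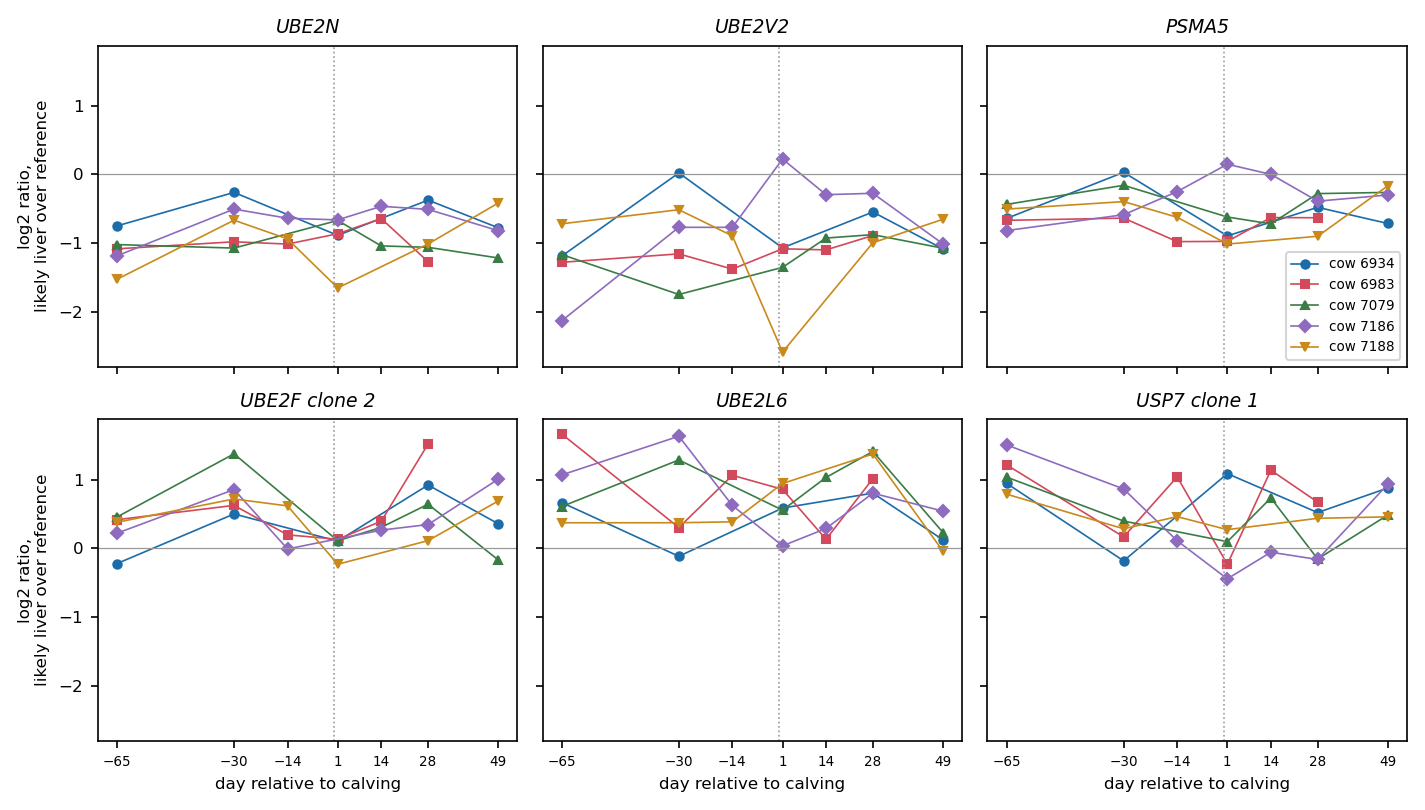
Log2 ratio, likely of liver over reference, against the day relative to calving for 6 member clones, with 1 line per cow and calving as the dotted line. UBE2N, UBE2V2 and PSMA5 lie mostly below 0 on all days, UBE2L6 and UBE2F clone 2 mostly above it, and UBE2L6 is lower on day 49 than on day 28 in each of the 4 cows.

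Lactation as a whole, the mean of days 14, 28 and 49, was set against the mean of the prepartum days -65, -30 and -14. No member passed the threshold, 0.0% of all clones did, and 0 of 80 members reached an unadjusted p under 0.05, against 3.83% of all clones. The smallest p in the enzyme classes belonged to USP16, a protease acting on histones (0.30 ± 0.15, SE), and to the first clone of UBE2B, a conjugating enzyme of DNA damage tolerance (0.36 ± 0.21, SE). In the proteasome class it belonged to the ATPase subunits PSMC2, in its first clone (0.25 ± 0.18, SE), and PSMC1 (-0.15 ± 0.11, SE). All 4 had an adjusted p of 0.997. The 95% interval of this difference lay within a 2-fold change either way for 79 of 80 members, against 97.5% of all clones. For the 4 pairs of single days this held for 68, 68, 68 and 69 of 80 members in order of time, against 77.2%, 77.7%, 79.4% and 76.1% of all clones.

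The classes differed in how their medians lay, without a test. From day -65 to day -30 the median difference was 0.17 over proteasome clones, 0.02 over enzyme clones and 0.05 over all clones, with 19 of 28, 26 of 51 and 54.8% above 0. Across calving it was -0.20, 0.04 and -0.03, with 8 of 28, 26 of 51 and 46.4% above 0. From day 1 to day 28 it was 0.17, 0.03 and 0.04, with 21 of 28, 31 of 51 and 57.6% above 0. From day 28 to day 49 it was -0.07, -0.02 and -0.02, with 10 of 28, 23 of 51 and 46.6% above 0. Between lactation and the prepartum days it was -0.02, 0.03 and -0.00, with 12 of 28, 33 of 51 and 49.9% above 0. In the same 5 contrasts 10, 4, 13, 4 and 6 of 15 clones of the 20S core were above 0. So were 8, 3, 7, 5 and 5 of 11 clones counted with the 19S particle by their PSMC or PSMD symbol, the assembly chaperone PSMD9 among them. Neighbouring contrasts share a day, and clones share cows and arrays, so these counts are not independent.

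The Kupffer cell and macrophage markers had medians of 0.19, -0.39, 0.31, -0.53 and -0.45 in the same 5 contrasts, none of 14 clones past the threshold. The hepatocyte markers had medians of -0.18, -0.39, 0.14, -0.31 and -0.34 over 6 clones. Per cow, the median level of the Kupffer cell and macrophage markers lay between 1.20 and 2.47 on day -65, 1.41 and 2.56 on day -30, 1.83 and 2.32 on day -14, 1.21 and 1.70 on day 1, 0.91 and 1.83 on day 14, 1.40 and 2.29 on day 28, and 0.78 and 1.97 on day 49. The medians over all clones, over proteasome clones and over the Kupffer cell and macrophage markers had the same sign in each contrast. The hepatocyte median had the opposite sign from day -65 to day -30. So had the enzyme median across calving (0.04), and the enzyme and the lymphocyte and neutrophil medians for lactation (0.03 and 0.01). For lactation the median over all clones was -0.00, with 49.9% above 0. The part of any of these cell types in the class medians was not tested.

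**Figure D3:**
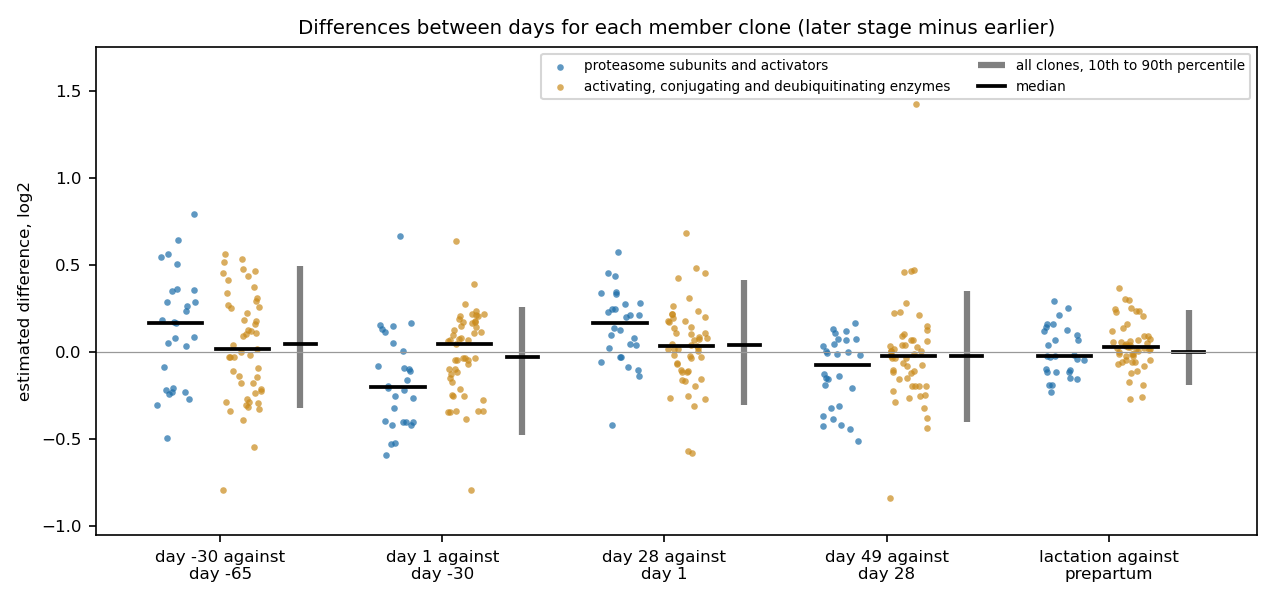
Estimated log2 difference of each member clone in 5 comparisons of days, later stage minus earlier. Each point is 1 clone, black bars are medians, and grey bars span the 10th to 90th percentile of all 5280 clones; the proteasome median is at -0.20 across calving and at 0.17 from day 1 to day 28, inside the grey bars.

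The cutting subunits were looked at one by one. PSMB5, with chymotrypsin-like activity, gave -0.19 between lactation and the prepartum days (95% interval -0.51 to 0.13). PSMB6, with caspase-like activity, gave -0.15 (-0.47 to 0.16), and PSMB7 gave 0.07 (-0.32 to 0.45). The interferon-inducible subunits that can replace them gave -0.23 for PSMB8 (-0.77 to 0.31), -0.12 for PSMB9 (-0.49 to 0.26) and -0.02 for PSMB10 (-0.23 to 0.19). PSME1 gave -0.19 (-0.55 to 0.17). All intervals held 0, and the adjusted p was 0.997 for each. The 4 interferon-inducible genes had medians of 0.07, -0.26, 0.18, -0.29 and -0.15 in the 5 contrasts, in the order given above. Of the 4, 2, 1, 4, 1 and 0 were above 0, and none passed the threshold. Markers of interferon response and antigen presentation had medians of 0.19, -0.42, 0.12, 0.03 and -0.11, with 4, 1, 4, 5 and 0 of 7 clones above 0.

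For each cow, a level was taken over its days after the day effects of the fit were removed, since cows cover different days. The level of a member against the reference was tested as the mean of these 5 cow levels against 0. In this test 22 of 80 members, 27.5%, passed an adjusted p under 0.05, against 46.4% of all clones. Of these, 8 lay above and 14 below the reference, while 23.1% of all clones passed above and 23.3% below. The proteasome class passed in 3 of 28 clones and the enzyme classes in 19 of 51, of which 2 of 3 were activating enzymes, 13 of 25 conjugating enzymes and 4 of 23 ubiquitin-specific proteases.

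The lowest members were a pair of partner proteins. UBE2V2 is a variant without a catalytic cysteine that joins UBE2N to build chains used in signalling rather than degradation. UBE2V2 had -0.73, -1.15, -1.20, -0.72 and -1.02 in cows 6934, 6983, 7079, 7186 and 7188, a mean of -0.96 ± 0.23 (SD, n = 5, limma adjusted p = 9.62e-07). UBE2N had -0.57, -0.97, -1.01, -0.68 and -1.004 in the same cows, a mean of -0.85 ± 0.21 (SD). Both were below the reference in 5 of 5 cows, and UBE2N in 30 of 30 cow-days. UBE2V2 ranged more widely over cow-days, between -2.58 in cow 7188 and 0.22 in cow 7186, both on day 1. In the smaller table's 4 cow-days, UBE2N had a median of -1.25 and UBE2V2 of -0.70, below 0 in 4 of 4 for both.

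The other conjugating enzymes below the reference were UBE2E3 (-0.67 ± 0.23), UBE2R2 clone 1 (-0.51 ± 0.16), UBE2B clone 1 (-0.48 ± 0.09), UBE2A (-0.44 ± 0.26), UBE2K (-0.40 ± 0.13) and UBE2H clone 1 (-0.40 ± 0.16; SD, n = 5 each). UBE2A and UBE2B are near copies of 1 enzyme that marks histones and the clamp of DNA replication, and UBE2K lengthens chains that lead to the proteasome. Transcripts of such near copies may bind the same spot, which was not tested. UBE2E3 was also below 0 in 4 of 4 cow-days of the smaller table (median -1.20). With liver in Cy5 alone, the calls of UBE2R2 clone 1, UBE2H clone 1 and UBE2B clone 1 were lost (adjusted p = 0.405, 0.309 and 0.0647).

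Above the reference lay UBE2L6, with 0.36, 0.77, 0.86, 0.71 and 0.52 in the 5 cows, a mean of 0.64 ± 0.20 (SD). Its median in the smaller table was 0.90, above 0 in 4 of 4 cow-days. Both clones of UBE2F were above as well, at 0.51 ± 0.25 and 0.40 ± 0.11, but had medians of -0.01 and -0.37 in the smaller table. UBE2J2, of degradation at the endoplasmic reticulum, was at 0.31 ± 0.12 and UBE2D4 at 0.29 ± 0.18 (SD, n = 5 each). UBE2J2 had opposite signs in the 2 dye orientations, 1.10 with liver in Cy3 and -0.51 with liver in Cy5. Its call was lost without cow 6934, 7079 or 7188 (adjusted p = 0.0508, 0.0879 and 0.0571), and that of UBE2D4 without cow 6934, 7079 or 7186 (adjusted p = 0.0889, 0.0524 and 0.0673).

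Of the activating enzymes, UBA3, which charges NEDD8, was at -0.48 ± 0.33, and UBA1, the main enzyme for ubiquitin, at -0.26 ± 0.17 (SD, n = 5 each). The call of UBA1 was lost without cow 6934, 6983, 7079 or 7188 (adjusted p = 0.0822, 0.138, 0.07 and 0.0888), and its level was 0.03 with liver in Cy5 alone. The call of UBA3 was lost with liver in Cy3 alone (adjusted p = 0.161). UBA2, which charges SUMO, was at 0.02 ± 0.30 and did not pass. The ubiquitin-specific proteases that passed were USP7 clone 1 (0.53 ± 0.14), USP19 (0.48 ± 0.15), USP3 (0.44 ± 0.19) and USP14 (-0.25 ± 0.18; SD, n = 5 each). USP14 binds the proteasome itself. Its call was lost without cow 6934, 6983, 7079 or 7188 (adjusted p = 0.087, 0.0906, 0.224 and 0.163), with liver in Cy3 alone and with array weights. USP3 turned to -0.17 with liver in Cy5 alone. In that setting the calls of USP3, USP19 and USP7 clone 1 were lost (adjusted p = 0.151, 0.0602 and 0.181). USP7 clone 1 had a median of -0.59 in the smaller table, opposite to its level in the larger one.

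In the proteasome class only PSMA5, PSMA1 and the first clone of PSMC2 passed, all below the reference. PSMA5 and PSMA1 belong to the outer rings of the 20S core, which gate its entrance. PSMA5 had -0.54, -0.73, -0.42, -0.31 and -0.59 in the 5 cows, a mean of -0.52 ± 0.16 (SD), and PSMA1 had -0.37, -0.65, -0.66, -0.11 and -0.73, a mean of -0.50 ± 0.26 (SD). PSMA1 was at -2.03 in cow 7188 and 0.83 in cow 7186 on day 1, the same cows and day as the extremes of UBE2V2. PSMC2 clone 1 was at -0.25 ± 0.17 (SD), and its call was lost without cow 6934, 6983, 7079 or 7188 (adjusted p = 0.0738, 0.114, 0.152 and 0.153), with liver in Cy3 alone and with array weights. The highest clones of the class did not pass: PSMB8 at 0.17 ± 0.38, PSMC4 at 0.14 ± 0.20, PSME4 at 0.13 ± 0.37 and the second clone of PSMA7 at 0.12 ± 0.34 (SD, n = 5 each). PSMD1, the fourth lowest, was at -0.25 ± 0.28 (SD) with an adjusted p of 0.078.

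**Figure D4:**
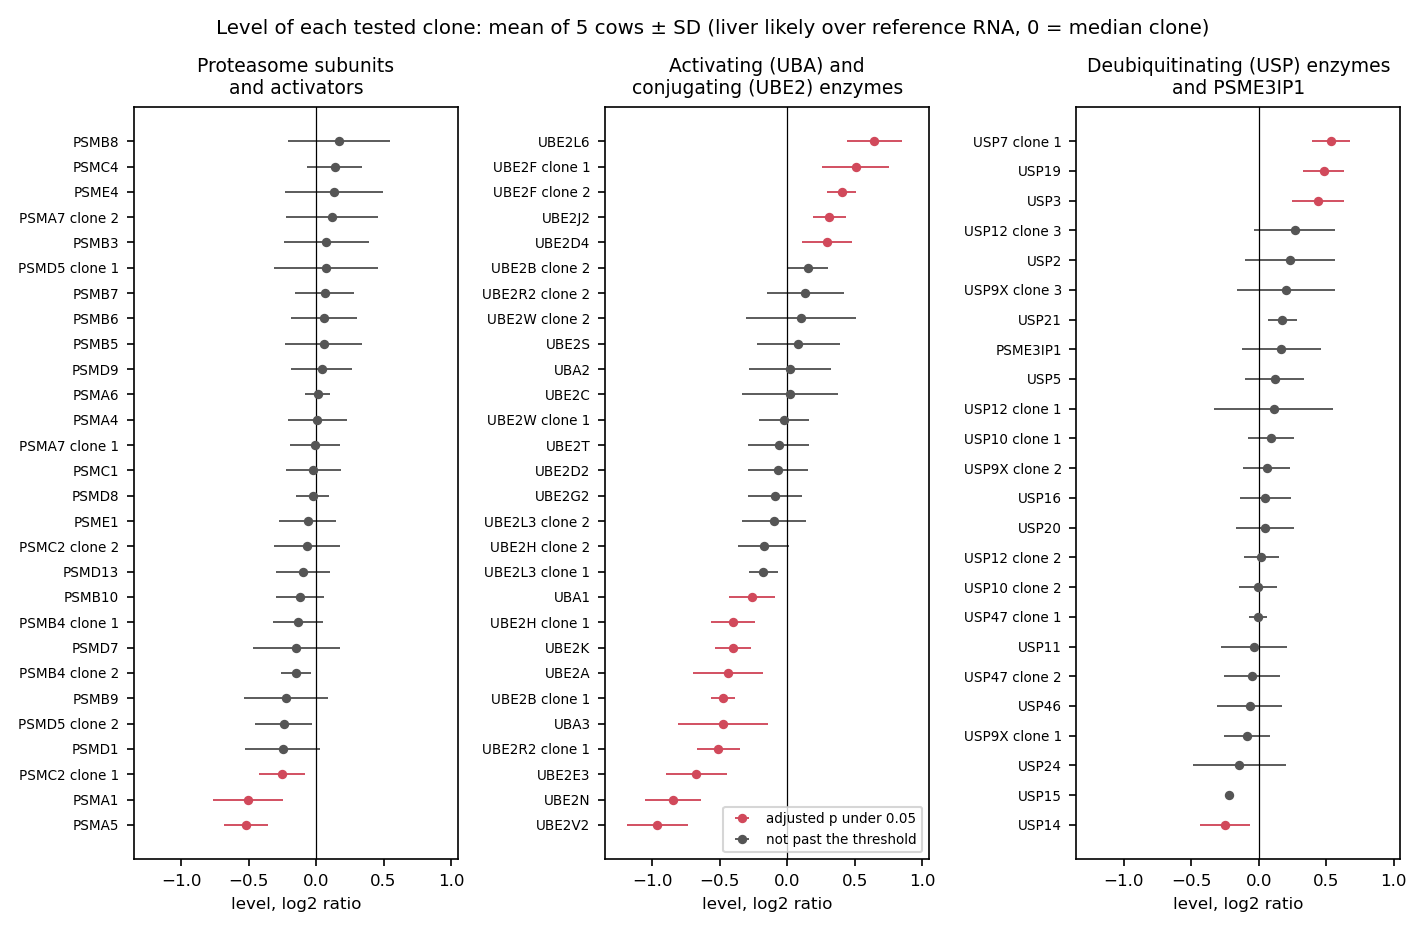
Level of each of the 80 tested clones, as the mean of 5 cows with the SD over cows, on a log2 ratio scale where 0 is the median clone. Red marks the 22 clones past the level test: 3 proteasome clones, all below 0, and 19 enzyme clones, from UBE2V2 at -0.96 to UBE2L6 at 0.64.

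Levels of proteasome clones lay closer together than those of the enzymes. The SD over clones was 0.18 in the proteasome class, 0.34 in the enzyme classes and 0.67 over all clones. Within 0.25 of the reference lay 25 of 28 proteasome clones (89.3%), 31 of 51 enzyme clones (60.8%) and 52.6% of all clones. The residual SD of a clone, left after day and cow, had a median of 0.38 in the proteasome class, 0.33 in the enzyme classes and 0.38 over all clones. A median pairwise Pearson correlation over 30 cow-days was 0.12 within the 20S core, 0.07 within the proteasome class, 0.01 within the enzyme classes and 0.00 over all clones. It is a description only, since the cow-days share cows and each array's centring.

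The level depends on the dye for many members. With arrays of 1 orientation at a time, 27 of 80 members had the same sign both ways, against 46.2% of all clones, and 19 of the 22 that passed did so. Of the 53 with opposite signs, 30 were below 0 with liver in Cy3. The smaller table comes from a different array platform and was centred separately. Levels in the 2 tables correlated at r = 0.359 over 80 members and 0.695 over 5280 clones, a description only, since clones share arrays. In the smaller table's 4 cow-days, 16 of the 22 had the same sign by their median, and 11 had it in all 4. The other 6 were both clones of UBE2F, UBE2H clone 1, UBE2D4, USP3 and USP7 clone 1. Over 20 alternative settings, of which 17 give a level, 10 clones kept their call wherever they were tested: PSMA5, PSMA1, UBE2V2, UBE2N, UBE2E3, UBE2A, UBE2K, UBE2L6 and both clones of UBE2F.

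Of 14 genes with more than 1 tested clone, 7 had all clones on one side of the reference. UBE2F was the only one with every clone past the level test, and 4 others had some: UBE2B, UBE2H, UBE2R2 and PSMC2. The clones differed most in UBE2R2 (-0.51 and 0.13) and UBE2B (-0.48 and 0.15), and least in PSMB4 (-0.15 and -0.13), with a median gap of 0.16. USP12 with 3 clones lay between 0.02 and 0.27, and USP9X with 3 clones between -0.09 and 0.20. UBE2H had -0.40 and -0.18 and PSMC2 -0.25 and -0.07. The remaining pairs were PSMA7 (-0.01 and 0.12), PSMD5 (-0.24 and 0.08), UBE2L3 (-0.18 and -0.10), UBE2W (-0.02 and 0.10), USP10 (-0.00 and 0.09) and USP47 (-0.05 and -0.01).

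Between cows, 12 of 80 members, 15.0%, passed a moderated F test at an adjusted p under 0.05, against 15.2% of all clones. At an unadjusted p under 0.05, 30 of 80 did, against 34.1% of all clones. They were 4 of 28 proteasome clones (PSMA4, PSMB3, PSMB4 clone 1 and PSMD5 clone 1) and 8 of 51 enzyme clones (UBA2, UBE2A, UBE2C, UBE2D2, UBE2L3 clone 2, UBE2R2 clone 2, UBE2W clone 2 and USP12 clone 1). USP12 clone 1 had the widest range, with 0.74 in cow 6983, 0.29 in cow 7079, 0.10 in cow 7188, -0.15 in cow 6934 and -0.42 in cow 7186 (adjusted p = 0.014). UBE2C, which drives mitosis with the anaphase-promoting complex, had 0.51, 0.14, 0.05, -0.18 and -0.44 in the same order of cows (adjusted p = 0.014). In 9 of the 12, cow 6983 was highest and cow 7186 lowest. In UBE2A and UBE2R2 clone 2 cow 6983 was lowest, and in PSMB4 clone 1 cow 7188 was highest. The order of the cows was not counted over all clones, so it is not read as particular to the members. Among the marker genes past this test, cow 6983 was also highest and cow 7186 lowest in MX1 (0.28 and -0.48) and CD163 (0.50 and -0.41). Cow 6983 was lowest in IRF1 and TAP1.

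Of these 12, 11 had opposite signs in the 2 dye orientations, and 10 of the 11 were below 0 with liver in Cy3. No member passed, against at most 0.0726% of all clones, without centring, with liver in Cy5 alone, without the 5 cow-days whose exchanged arrays correlated above 0, without cow 6983 or without cow 7186. With array weights, given to each cow-day by its fit to the day and cow terms, 37 passed, 46.2%, against 41.3% of all clones. The cow and the batch of its arrays cannot be told apart, as the labels give no array batch.

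**Figure D5:**
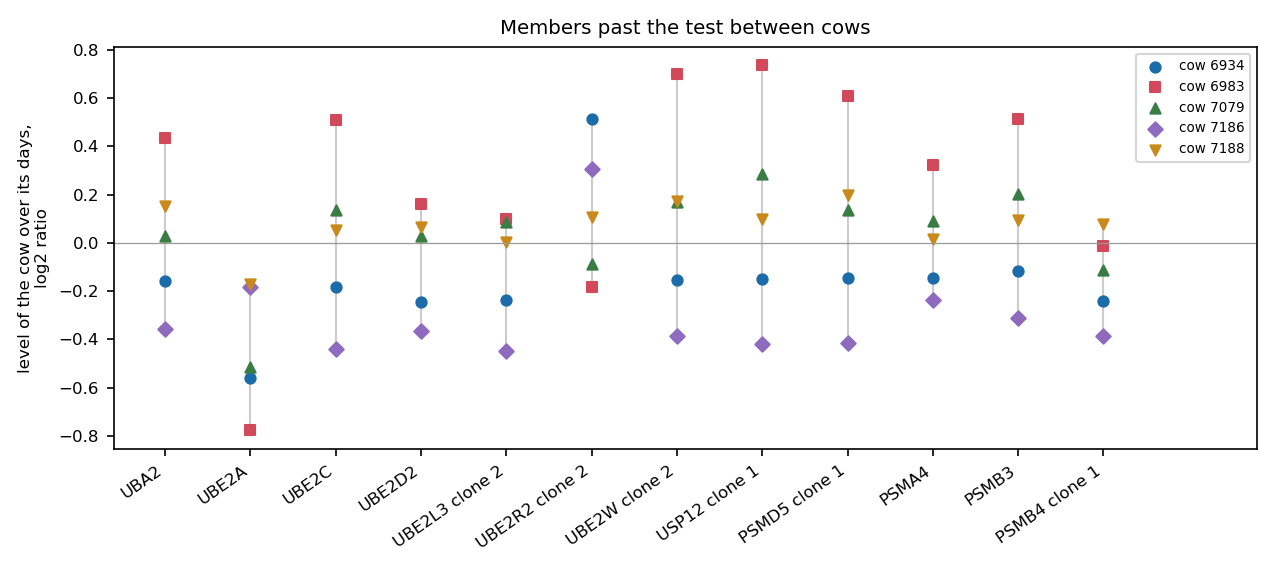
Level of each cow over its days, as a log2 ratio, for the 12 member clones past the test between cows, with 1 symbol per cow. Cow 6983 is highest and cow 7186 lowest in 9 of the 12, and UBE2A and UBE2R2 clone 2 have cow 6983 lowest. The share of all clones with this order was not counted.

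The rest of the pathway was counted from a list of 112 genes (ubiquitin genes, ligases, other deubiquitinating enzymes, chaperones and adaptors), of which 50 were tested in 63 clones. None passed in the day test or in any of the 5 contrasts. In the level test 31 of 63 clones, 49.2%, passed, against 46.4% of all clones. Of these, 16 lay above and 15 below the reference, against 23.1% and 23.3% of all clones. In the test between cows 14 of 63 passed, against 15.2% of all clones. Their median difference between lactation and the prepartum days was -0.00, with 31 of 63 above 0.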

How the data were processed

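Members and gene lists were chosen with earlier results of these data known. The authors deposited log2 ratios of the 2 dye channels of each spot, from images taken on a Scanarray 4000 and quantified with GenePix 4.0, per the labels. The labels record no background subtraction, spot flags, normalization or numerator. No intensities were used, so signal over background is unknown, and precision is limited by the number of cows, from 3 to 5 on a day. Arrays with liver in Cy3 had their sign turned. Each of the 60 arrays of the larger table was centred on the median of its 11386 listed rows, the 2 spots of a clone were averaged, and the exchanged pair gave 1 value per cow-day. The smaller table (8 arrays, 4 cow-days) was not tested alone. Clone symbols came from the platform annotation, updated through gene identifiers to the ARS-UCD2.0 gene table for 5591 of 5693 clones, and no member symbol changed. No coordinates or sequences are given.

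Fits used limma 3.58.1 in R 4.3.3 with fixed terms for day and cow, moderated tests, 19 residual degrees of freedom and 2-sided Benjamini-Hochberg adjustment over 5280 clones. The design did not block on array or batch. Cow was a term since each animal was sampled repeatedly. After the day means were taken off, 2 days of a cow correlated at 0.137 (mean of 76 pairs) and 2 days of different cows at -0.03 (307 pairs). The fits were tested on simulated data. Named with values were members past a day, contrast or cow test, the 4 highest and 4 lowest levels and the 2 smallest p per class, the cutting subunits, activators, activating enzymes and genes with several clones. All other members past the level test are also named, chosen after their values were seen. Alternatives changed the centring, dye, blocks, filters, tables, weights and cows, 1 at a time.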

Additional observations from a re-analysis of the deposited data

Results flagged for a closer look

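Of 90 groups of 4 or 5 cows looked at, 2 held a cow far from the others, and chance flags about 1 in 20 groups. The second clone of USP9X had a mean level of 0.37 in cow 7186, while the other 4 cows lay between -0.07 and 0.01. The median of the enzyme clones on day 49 was -0.14 in cow 6934, while the other 3 cows lay between -0.04 and -0.03.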

How the results depend on the processing

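In the day test and the 5 contrasts, no member passed under any alternative run, against at most 0.17% of all clones. This includes no replicate block for the cow (0) and the cow as a random block (0). In the test between cows 12 passed in the main fit. No member passed without centring, with liver in Cy5 alone or after leaving out the 5 cow-days whose dye pair correlated above 0. Of all clones at most 0.0726% passed there. With array weights 37 passed (46.2%, against 41.3% of all clones). With 1 cow left out 0 to 13 passed, against 0.0% to 15.0% of all clones (0 without cow 6983, 0 without cow 7186 and 7 without cow 6934). The level test called 22 members, but 53 with liver in Cy3 alone (65.4%, against 66.6% of all clones) and 48 with liver in Cy5 alone (59.3%, against 63.7%). With 1 cow left out it called 17 to 22, against 37.5% to 45.9% of all clones. The median level was -0.25 and 0.14 over proteasome clones with liver in Cy3 alone and in Cy5 alone, and -0.12 over enzyme clones with liver in Cy5 alone. The median of enzyme clones for day -30 against day -65 was 0.0928 with liver in Cy3 alone and -0.0242 to 0.0917 with 1 cow left out (lowest without cow 7186, highest without cow 6983). Without centring, the median over all clones moved to 0.14 for lactation against prepartum and -0.16 for day 49 against day 28. The proteasome medians there were 0.12 and -0.21, and the enzyme median for lactation was 0.16. Levels turned sign in 34 of 80 members with liver in Cy5 alone and in 19 of 80 with liver in Cy3 alone. Among the members named with values or past the level test, those that passed in either fit turned with liver in Cy5 alone for UBA1 (0.0293), UBE2J2 (-0.5414), USP3 (-0.1701), UBE2D2 (0.40), UBE2R2 clone 2 (-0.32), UBE2S (-1.54), UBE2W clone 1 (0.35), USP12 clone 2 (-0.57), USP9X clone 1 (0.28), USP9X clone 3 (-0.37), PSMA7 clone 1 (0.35), PSMB4 clone 1 (0.29), PSME1 (0.33) and PSME4 (-0.72). With liver in Cy3 alone they turned for UBA2 (-0.44), UBE2C (-0.43), USP46 (0.56), USP47 clone 2 (0.45) and PSMA4 (-0.42). With 1 orientation the dye no longer averages out, and the spread over cows does not hold it. Those fits also rest on 1 array per cow-day. The cause of any of these changes was not tested.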
